A study of Homo sapiens with 12 samples.

Results

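The genes described here are ATF4, DDIT3, which encodes CHOP, and 8 genes that are switched on downstream of these factors, TRIB3, CHAC1, SESN2, ASNS, STC2, NUPR1, DDIT4 and VLDLR. They were chosen by gene name as members of the ATF4 and CHOP stress response. Each of the 10 had 1 entry among the 78932 genes of the kava table and 1 among the 35697 genes of the siRNA table, and all 10 passed the filter on low values in both. The libraries came from BEAS-2B, a human cell line of immortalised bronchial epithelium, and every group, controls included, had been kept for 20 weeks in 0.25 µM K2Cr2O7, a source of hexavalent chromium, Cr(VI). The 4 groups held 3 libraries each. Kava cells received Cr(VI) with 25 µg/ml of kava, a preparation of the pepper plant Piper methysticum, and were set against vehicle cells that received Cr(VI) with 0.05% DMSO. In the knockdown experiment, vehicle and Cr(VI) cells were transfected with 100 nM of a pooled siRNA against SNRPA1, a protein of the U2 snRNP of the spliceosome, or with 100 nM of a non-targeting control siRNA, and were harvested 48 h later. The labels give the genotype as SNRPA1 knockdown for the first of these and WT for all other groups. All groups are of 1 cell line and all received chromium, so the values say nothing about cells without it.

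ATF4 and CHOP are the main transcription factors of the integrated stress response. Kinases that sense misfolded protein, amino acid shortage, viral RNA or heme shortage phosphorylate the initiation factor eIF2, which lowers general translation and raises translation of the ATF4 mRNA. ATF4 protein then switches on genes for amino acid supply and, with CHOP, genes that curb growth or lead to cell death when stress lasts. The response is thus set largely at the level of protein, which RNA sequencing does not measure.

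ATF4 lies at chr22:39519695-39522683 (hg38, plus strand) and DDIT3 at chr12:57516588-57521737 (minus strand). TRIB3 lies at chr20:362835-397559 (plus), CHAC1 at chr15:40952962-40956512 (plus), SESN2 at chr1:28259518-28282491 (plus) and ASNS at chr7:97851677-97872408 (minus). STC2 lies at chr5:173314723-173328414 (minus), NUPR1 at chr16:28532708-28538974 (minus), DDIT4 at chr10:72273919-72276036 (plus) and VLDLR at chr9:2621182-2660056 (plus).

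ATF4 binds DNA together with C/EBP proteins at C/EBP-ATF response elements, of which the core TGATGNAA was searched here, on both strands, in RefSeq promoters of GRCh38.p14 that run from 250 bases before to 50 bases after each gene's start. The core was present in 2 of the 9 members with a promoter in the table, CHAC1 and ASNS, and in 4.46% of all 27305 genes with a promoter. The 30 bases around the match are shown for both, since these are the only members that hold the ATF4 core in this window. They lie at chr15:40953251-40953280 (plus strand) and chr7:97872458-97872487 (minus strand), and the capitals mark the match, which in CHAC1 is the core read from the opposite strand.
CHAC1: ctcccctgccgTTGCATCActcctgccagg
ASNS: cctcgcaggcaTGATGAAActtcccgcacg
In CHAC1 the match ran from 209 to 202 bases before the start, and in ASNS from 68 to 61 bases before it. The ASNS stretch is the amino acid response element known from studies of this gene. A match is a description of the letters and not a measured binding site.

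The 250 bases before the start of STC2, at chr5:173328415-173328664 (minus strand, GRCh38.p14, RefSeq), are shown because STC2 had the largest change of the 10 genes with kava. They hold no match to the core, and hence no capitals.
STC2: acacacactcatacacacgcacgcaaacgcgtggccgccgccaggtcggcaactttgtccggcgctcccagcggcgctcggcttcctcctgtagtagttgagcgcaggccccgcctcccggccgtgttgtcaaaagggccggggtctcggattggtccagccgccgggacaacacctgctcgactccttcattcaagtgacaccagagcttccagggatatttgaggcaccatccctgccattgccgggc
None of the 9 promoters held the cAMP response element TGACGTCA, present in 2.25% of all promoters, the XBP1 element TGACGTGG (0.927%) or the endoplasmic reticulum stress element (0.0916%). The antioxidant response element TGACNNNGC was found in TRIB3, STC2 and VLDLR and in 16.1% of all promoters. In STC2 the match ran from base 20 to base 28 after the start, outside the 250 bases printed above. The antioxidant element shares its first letters with the cAMP and XBP1 elements. For every element only exact matches to the searched letters were counted. The DDIT3 promoter holds a stretch that differs from the searched endoplasmic reticulum stress element only in its last letter. That stretch was therefore not counted, and its role was not tested.

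With kava, 7 of the 10 genes were higher than with vehicle and none was lower by limma (8 higher and 0 lower at an unadjusted p under 0.05). The changes ranged from 1.13-fold for ATF4 to 2.17-fold for STC2, the hormone-like secreted glycoprotein stanniocalcin 2. DDIT3, TRIB3, NUPR1, DDIT4 and VLDLR rose as well. CHAC1, SESN2 and ASNS were not called. Levels are TPM, transcripts scaled to 1000000 in each library, and a gene was called at a limma adjusted p under 0.05 on log2(TPM + 1). All fold changes on this scale understate the change of low genes. The calls have to be read against a background in which 31.9% of the 13866 genes tested were called, 16.3% as higher and 15.6% as lower. The median log2 fold change was 0.41 over the 10 members and -0.014 over all tested genes. Nothing in the labels tells whether the replicates of a group were grown apart, so the p-values measure only the spread between these libraries. In bulk RNA, fewer cells that express a gene and less of its RNA per cell cannot be told apart.

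The labelled bronchial epithelial origin was checked against marker genes, and several of these moved with kava. Of 7 epithelial markers 5 were tested, 1 was higher and 3 were lower, while their sum reached 1280 to 1339 TPM with kava and 1197 to 1244 TPM with vehicle. KRT19, a keratin of simple epithelia, fell to 0.705 ± 0.0309 TPM with kava, against 23.5 ± 1.18 TPM with vehicle (log2 fold change -3.85, limma adjusted p = 6.83e-07). KRT7 rose to 406 ± 19.001 TPM with kava, against 192 ± 2.85 TPM with vehicle (log2 fold change 1.079, limma adjusted p = 7.16e-06), a change of about the size of that of STC2. KRT8 fell by 0.21 and KRT18 fell by 0.11 on the log2 scale, EPCAM was not called, and the airway basal keratin KRT5 and the epithelial cadherin CDH1 averaged under 1 TPM. Of 8 fibroblast markers 4 were tested, and their sum, most of it THY1, reached 502 to 529 TPM with kava and 479 to 513 TPM with vehicle. Among them COL1A2, a chain of type I collagen, rose to 8.54 ± 0.378 TPM with kava, against 0.101 ± 0.0554 TPM with vehicle (log2 fold change 3.12, limma adjusted p = 2.73e-06), whereas the partner chain COL1A1 fell by 0.14. DCN was listed at 0 in 5 of the 6 libraries. Of 6 blood cell markers only CD68 passed the filter on low values, at 25.5 ± 1.05 TPM with kava and 13.4 ± 0.793 TPM with vehicle, and no endothelial or differentiated airway marker passed it. The part of these markers in the changes of the 10 genes was not tested.

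**Figure D1:**
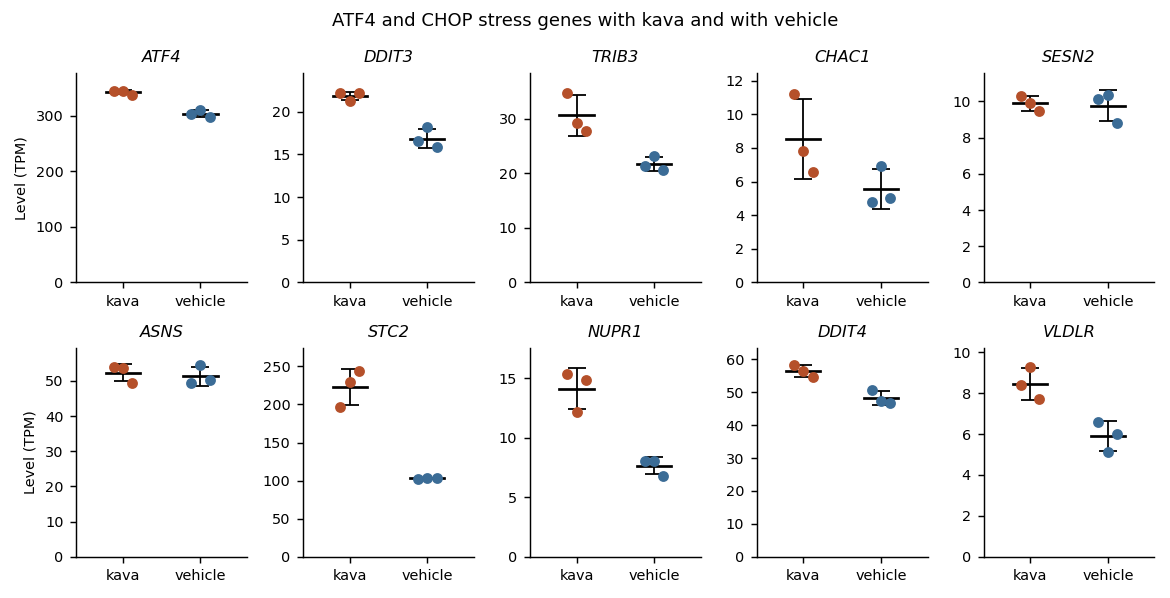
Level of each of the 10 genes in TPM, with each point 1 library of cells given kava with Cr(VI) or vehicle with Cr(VI). Lines are means and bars SD (n = 3), axes start at 0, and the groups do not overlap for 7 genes, while they overlap for CHAC1, SESN2 and ASNS.

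Of the transcription factors, ATF4 was the most abundant member in every group. Its level was 345, 343 and 337 TPM in the kava libraries, against 303, 309 and 297 TPM in the vehicle libraries. The groups did not overlap, and the shift was small but larger than the spread, with means of 342 ± 3.94 and 303 ± 6.21 TPM (SD, n = 3 each) and a log2 fold change of 0.17 ± 0.032 (SE, limma adjusted p = 0.00597). A larger rise was seen for 22.01% of tested genes, so the size of the ATF4 change was ordinary among them.

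DDIT3 encodes CHOP, a factor of the C/EBP family that pairs with other members of the family and is induced by ATF4. It stood at 22.1, 21.3 and 22.1 TPM with kava, against 16.5, 18.1 and 15.9 TPM with vehicle. All kava libraries were above all vehicle libraries, at means of 21.8 ± 0.503 and 16.9 ± 1.16 TPM (log2 fold change 0.36 ± 0.059, limma adjusted p = 0.00365). In GENCODE 29, 27.2% of the exon bases of DDIT3 are also exon of MARS1, the methionyl-tRNA synthetase gene on the opposite strand, and the sources used here do not say whether strand was used in counting. MARS1 itself differed by 0.06 on the log2 scale (limma adjusted p = 0.197).

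TRIB3 encodes a pseudokinase that binds AKT and ATF4 and is induced by ATF4 with CHOP. Its level was 34.8, 29.3 and 27.8 TPM in kava libraries, against 21.4, 23.2 and 20.7 TPM in vehicle libraries. The groups did not overlap, with the first kava library the highest (log2 fold change 0.47 ± 0.087, limma adjusted p = 0.00594).

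CHAC1, a glutathione-degrading enzyme induced by ATF4, had 11.2, 7.79 and 6.57 TPM with kava, against 4.76, 6.92 and 5.01 TPM with vehicle. The lowest kava library lay below the highest vehicle library, and the difference was not called (log2 fold change 0.52 ± 0.19, limma adjusted p = 0.0748). Its estimate exceeded those of DDIT3 and TRIB3, and its spread was wider, with an SD of 2.39 TPM in kava libraries and 1.19 TPM in vehicle libraries. Without the third kava library it was called, at a log2 fold change of 0.67 (limma adjusted p = 0.0338).

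SESN2 and ASNS, both induced by ATF4 when amino acids run short, did not differ beyond their spread. SESN2, a leucine sensor that restrains the growth kinase complex mTORC1, had 10.3, 9.92 and 9.48 TPM with kava, against 10.1, 10.4 and 8.79 TPM with vehicle (log2 fold change 0.02 ± 0.074, limma adjusted p = 0.855). ASNS, which makes asparagine, had 53.9, 53.6 and 49.5 TPM with kava, against 49.4, 54.4 and 50.2 TPM with vehicle (log2 fold change 0.03 ± 0.054, limma adjusted p = 0.735). The groups overlapped for both genes. CHAC1 and ASNS, the members with the ATF4 core printed above, were both among the 3 that were not called, though the estimate of CHAC1 was 0.52. The part of the core in this was not tested. In GENCODE 29, 44.6% of the exon bases of ASNS are shared with a noncoding gene on the same strand, AC079781.5, which was listed at 0.870 to 1.59 TPM in kava libraries and 1.57 to 1.86 TPM in vehicle libraries.

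STC2 had the largest change of the 10. Its level was 197, 229 and 243 TPM in kava libraries, against 102, 104 and 103 TPM in vehicle libraries. Every kava library was far above every vehicle library, at means of 223 ± 23.9 and 103 ± 1.07 TPM (limma adjusted p = 5.83e-05, log2 fold change 1.10 ± 0.073), and 0.995% of tested genes rose more. The 50 tested genes nearest to STC2 on chromosome 5 had a median log2 fold change of 0.21, whereas the medians around the other 9 members lay between -0.14 and 0.0082. Their part in the STC2 value was not tested.

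NUPR1 encodes a small chromatin-associated protein induced by many stresses. It stood at 15.3, 12.2 and 14.9 TPM with kava, against 8.04, 8.05 and 6.80 TPM with vehicle. The groups were well apart, at 14.1 ± 1.70 and 7.63 ± 0.719 TPM (log2 fold change 0.81 ± 0.10, limma adjusted p = 0.00106).

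DDIT4, also called REDD1, restrains mTORC1 through the TSC complex and is induced by ATF4, by hypoxia and by glucocorticoids. Its level was 58.3, 56.5 and 54.7 TPM in kava libraries, against 50.5, 47.2 and 46.7 TPM in vehicle libraries. The groups did not overlap (log2 fold change 0.23 ± 0.047, limma adjusted p = 0.00949). Of its exon bases, 41.2% are shared with the antisense gene DDIT4-AS1, which was not analysed here.

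VLDLR, a receptor for lipoproteins whose promoter ATF4 is known to activate, had 8.39, 9.27 and 7.70 TPM with kava, against 6.59, 5.12 and 6.02 TPM with vehicle. All kava libraries exceeded all vehicle libraries (log2 fold change 0.45 ± 0.10, limma adjusted p = 0.0127). The antisense gene VLDLR-AS1, which shares 7.90% of the exon bases of VLDLR, reached at most 0.394 TPM in any library. The groups were apart, kava above vehicle, for 7 of the 10 genes and for 22.6% of all tested genes, and apart with kava below vehicle for no member and 24.6% of tested genes, 47.2% in both directions together.

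In order of level, kava libraries held ATF4 at 342 TPM, STC2 at 223, DDIT4 at 56.5, ASNS at 52.3, TRIB3 at 30.6, DDIT3 at 21.8, NUPR1 at 14.1, SESN2 at 9.90, CHAC1 at 8.52 and VLDLR at 8.45 TPM. The range of CHAC1 overlapped those of SESN2 and VLDLR, while every SESN2 value lay above every VLDLR value. In vehicle libraries the order was ATF4 at 303 TPM, STC2 at 103, ASNS at 51.3, DDIT4 at 48.1, TRIB3 at 21.8, DDIT3 at 16.9, SESN2 at 9.76, NUPR1 at 7.63, VLDLR at 5.91 and CHAC1 at 5.56 TPM. Here ASNS and DDIT4 overlapped, as did VLDLR and CHAC1. NUPR1 thus stood above SESN2 with kava and below it with vehicle.

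Upstream of ATF4, the eIF2 kinases were not called. EIF2AK3, or PERK, which senses misfolded protein in the endoplasmic reticulum, averaged 16.96 ± 2.84 TPM with kava and 15.5 ± 0.437 TPM with vehicle (log2 fold change 0.11, limma adjusted p = 0.449). EIF2AK4, or GCN2, which senses amino acid shortage, differed by 0.06, EIF2AK2, or PKR, by 0.04 and EIF2AK1, or HRI, by 0.01 on the log2 scale. Of the 19 upstream genes listed, 5 were higher and 3 lower, with a median log2 fold change of 0.058.

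PPP1R15A, or GADD34, the stress-induced subunit of the eIF2 phosphatase and a target of ATF4 and CHOP, rose with kava to 66.7 ± 3.02 TPM, against 54.96 ± 1.73 TPM with vehicle (log2 fold change 0.27, limma adjusted p = 0.00427). DNAJC3, an inhibitor of PERK, rose by 0.23. Genes of eIF2 and of its exchange factor eIF2B moved both ways. EIF2B5 rose by 0.41, whereas EIF2S1, the subunit that is phosphorylated, fell by 0.44, EIF2B2 fell by 0.31 and EIF2B4 fell by 0.24 on the log2 scale. Genes beside EIF2B5 on chromosome 3 had a median of 0.44, and those beside EIF2S1 and EIF2B2 on chromosome 14 medians of -0.30 and -0.34, close to the changes of these genes themselves. The part of the neighbourhood in them was not tested.

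Among bZIP factors that pair with ATF4 or CHOP, 1 of 8 tested genes rose and 1 fell. CEBPG, a partner of ATF4, rose to 19.8 ± 0.338 TPM with kava, against 16.1 ± 0.539 TPM with vehicle (log2 fold change 0.28, limma adjusted p = 0.00446). ATF3, a target of ATF4 in many stresses, fell to 8.23 ± 1.42 TPM with kava, against 12.2 ± 1.06 TPM with vehicle (log2 fold change -0.53, limma adjusted p = 0.0144). CEBPB differed by 0.10 (limma adjusted p = 0.415) and ATF5, whose mRNA is translated under the same control as that of ATF4, by 0.05.

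Other ATF4 targets for amino acid supply were higher in 10 and lower in 1 of 19 cases, with a median log2 fold change of 0.15. Transporters led the list. SLC7A5 and SLC3A2, the subunits of a carrier of large neutral amino acids, rose by 0.53 and 0.36, the cystine carrier SLC7A11 by 0.49 and the glycine carrier SLC6A9 by 0.57 on the log2 scale. SLC7A5 averaged 338 ± 12.1 TPM with kava and 233 ± 10.02 TPM with vehicle (limma adjusted p = 0.000167). SLC38A2, a neutral amino acid carrier, rose by 0.25, and PHGDH, the first enzyme of serine synthesis, by 0.27. Of 10 tRNA charging genes 2 were higher, GARS1 by 0.27 and SARS1 by 0.12, while WARS1 fell by 0.33 and IARS1 fell by 0.13. The median of the tRNA charging genes was -0.051. Genes beside WARS1 and the other tRNA charging genes were not looked up, and the part of the neighbourhood was not tested.

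Of 15 tested ATF4 targets linked to stress, 6 were higher and 1, ATF3, was lower, with a median of 0.097. The autophagy receptor SQSTM1, which is also induced by the antioxidant factor NRF2, stood at 341 ± 16.9 TPM with kava and 189 ± 5.31 TPM with vehicle (log2 fold change 0.85, limma adjusted p = 2.23e-05). The growth factor gene VEGFA rose by 0.45 and the cytokine gene GDF15, at 3.42 ± 0.326 TPM with kava and 2.32 ± 0.319 TPM with vehicle, by 0.41. Of the 8 genes linked to CHOP in growth arrest and death, TNFRSF10B, which encodes the death receptor DR5, rose by 0.28, GADD45A by 0.18 and PPP1R15A as given above. BCL2L11, which encodes the death protein BIM, fell by 0.23.

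The ATF6 and XBP1 arms of the unfolded protein response, which act beside PERK, had 7 of 19 genes higher and none lower, at a median of 0.083 (limma, with 8 higher and 0 lower at an unadjusted p under 0.05). DNAJB11, a chaperone cofactor, rose to 172 ± 3.08 TPM with kava, against 113 ± 2.28 TPM with vehicle (log2 fold change 0.61, limma adjusted p = 2.94e-05). EDEM1 rose by 0.47, DNAJB9 by 0.34 and SYVN1 by 0.30, all of which serve the removal of misfolded protein. HYOU1 rose by 0.13, and the genes beside it had a median of -0.020. Genes beside DNAJB11, EDEM1, DNAJB9 and SYVN1 were not looked up, and the part of the neighbourhood in these rises was not tested.

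The complex mTORC1 and its amino acid sensors, on which SESN2 and DDIT4 act, had 3 genes higher and 3 lower of 18 tested. SEH1L, a part of the GATOR2 complex that SESN2 binds, fell by 0.78, and RPTOR, the defining subunit of mTORC1, rose by 0.38. Genes beside SEH1L on chromosome 18 had a median of -0.31 and genes beside RPTOR on chromosome 17 a median of 0.33, and the part of the neighbourhood was not tested. SEC13 rose by 0.21 and AKT1S1 by 0.16, while NPRL3 fell by 0.21 and RPS6KB1 fell by 0.23.

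Relatives of the members behaved differently from gene to gene. STC1, the other stanniocalcin, rose to 13.98 ± 0.689 TPM with kava, against 6.35 ± 0.174 TPM with vehicle (log2 fold change 1.03, limma adjusted p = 3.4e-05), a change near that of STC2, while the genes beside it on chromosome 8 had a median of -0.012. LRP8, a relative of VLDLR, rose by 0.37. ASNSD1 fell by 0.24, whereas TRIB1 at 0.26, TRIB2 at 0.07, SESN1 at -0.29 and CHAC2 at -0.14 were not called. DDIT4L and SESN3 were too low to be tested, and NUPR2 was listed at 0 in the kava experiment.

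Lists of factors that share targets with ATF4 also held called genes. Of 12 tested HIF targets, 6 were higher and none lower by limma (6 and 2 at an unadjusted p under 0.05), with a median of 0.19. Among them ADM rose by 1.13, NDRG1 by 0.92, LOX by 0.83, SLC2A1 by 0.39 and BNIP3 by 0.30. Of 6 glucocorticoid receptor targets, FKBP5 fell by 0.35 and none rose by limma (1 at an unadjusted p under 0.05). Of 12 p53 targets 3 were higher, with ZMAT3 at 0.41 and PLK3 at 0.34, and 4 were lower, with TP53I3 at -0.71, BTG2 at -0.48, CDKN1A at -0.46 and BAX at -0.22.

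**Figure D2:**
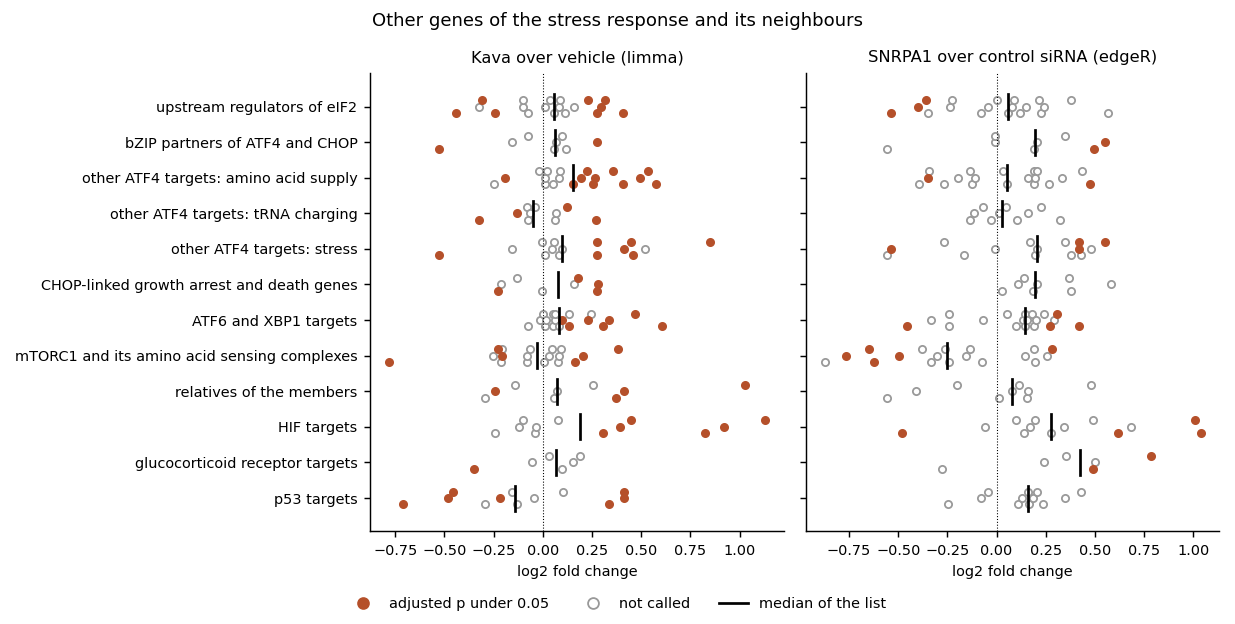
Log2 fold changes of the other genes of the stress response, each point 1 tested gene in its list, for kava over vehicle and for SNRPA1 siRNA over control siRNA. Filled points had an adjusted p under 0.05 and black lines are list medians, which with kava ran from -0.14 for p53 targets to 0.19 for HIF targets.

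The knockdown libraries held 55003534 to 65385258 counted reads, and levels are given in CPM, reads per 1000000 after TMM scaling. SNRPA1 itself stood at 21.4, 20.97 and 23.7 CPM in SNRPA1 siRNA libraries, against 67.6, 58.9 and 60.2 CPM in control siRNA libraries (log2 fold change -1.50 ± 0.098, edgeR adjusted p = 0.00495). With kava SNRPA1 was lower too, at 127 ± 2.99 TPM with kava and 151 ± 3.17 TPM with vehicle (log2 fold change -0.24, limma adjusted p = 0.00227). The first control siRNA library stood apart, at 38.4 on a first principal component that held 46.4% of the variance, against 4.31 and 9.85 for the other control siRNA libraries. The number of genes called in the whole table was 1677 of 13772, or 12.2%, with 4.89% higher and 7.29% lower. It was 4546 without that library, 1060 without the second and 15 without the third control siRNA library, and 0 without any of the SNRPA1 siRNA libraries, where edgeR still found 2992, 2889 and 3267 genes at an unadjusted p under 0.05. The calls of the knockdown thus depend on which libraries are included.

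In the knockdown, none of the 4 tested epithelial markers was called by edgeR, DESeq2 or limma-voom (0 at an unadjusted p under 0.05 in edgeR), although edgeR called 2 as higher without the first control siRNA library. KRT8 averaged 1307 ± 71.4 CPM with SNRPA1 siRNA and 1130 ± 153 CPM with control siRNA, and KRT5 and CDH1 again averaged under 1. Of the 3 tested fibroblast markers COL1A1 rose to 337 ± 36.97 CPM with SNRPA1 siRNA, against 258 ± 14.2 CPM with control siRNA (log2 fold change 0.38, edgeR adjusted p = 0.0464). CD68, the only blood cell marker tested, fell to 12.1 ± 1.45 CPM with SNRPA1 siRNA, against 22.3 ± 2.31 CPM with control siRNA. The part of these in the results was not tested.

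After SNRPA1 knockdown, 2 of the 10 genes, DDIT3 and STC2, were higher than with control siRNA and none was lower by edgeR's quasi-likelihood test. Of all 13772 tested genes, 4.89% were called higher and 7.29% lower. At an unadjusted p under 0.05 edgeR had 4 higher and 0 lower, and DESeq2 called 3 and limma-voom 2. The median log2 fold change was 0.18 over the 10 members and -0.0032 over all tested genes. Both calls were lost when any library other than the first control siRNA library was left out. Without that library 5 members were called, ATF4, DDIT3, TRIB3, STC2 and NUPR1, all higher. Its removal also raised the number of genes called in the whole table from 1677 to 4546. With all libraries, the members other than DDIT3 and STC2 overlapped between groups, save NUPR1 and ASNS.

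**Figure D3:**
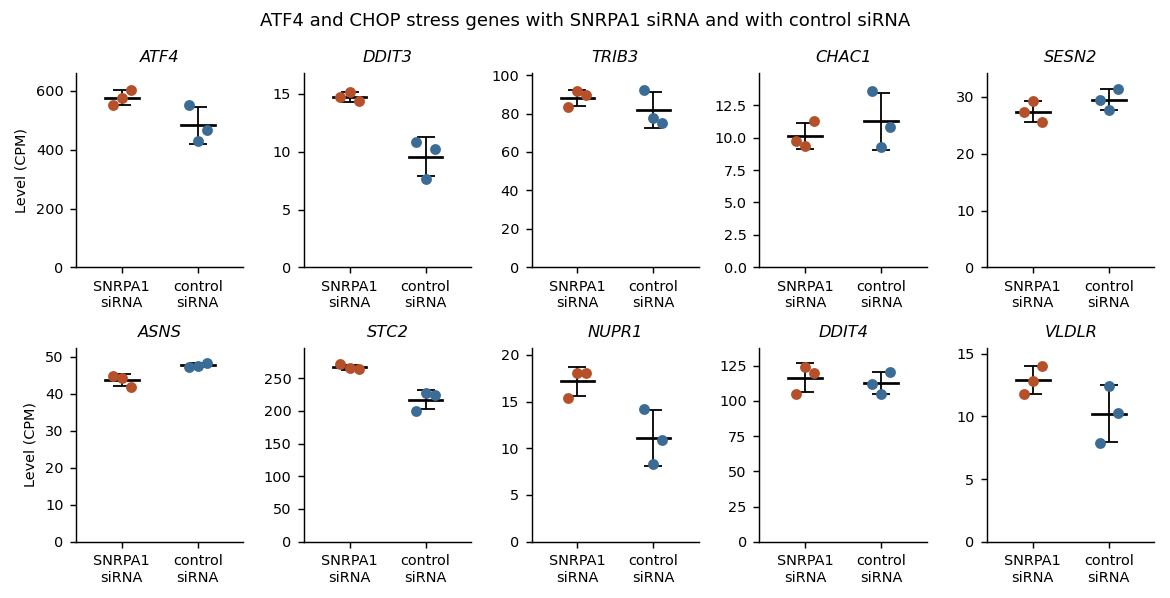
Level of each of the 10 genes in CPM, with each point 1 library of vehicle and Cr(VI) cells given SNRPA1 siRNA or control siRNA. Lines are means and bars SD (n = 3), axes start at 0, and SNRPA1 siRNA libraries all exceed control siRNA libraries for DDIT3, STC2 and NUPR1 and all lie below them for ASNS.

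DDIT3 stood at 14.7, 15.2 and 14.4 CPM with SNRPA1 siRNA, against 10.8, 7.66 and 10.2 CPM with control siRNA. The groups did not overlap, and the means were 14.7 ± 0.408 and 9.57 ± 1.68 CPM, 1.54-fold apart (edgeR adjusted p = 0.0393, log2 fold change 0.62 ± 0.15). With 1 library left out, the log2 fold change of DDIT3 lay between 0.49 and 0.72 and the edgeR adjusted p between 0.00729 and 0.152. The overlapping MARS1 differed by -0.07 (edgeR adjusted p = 0.500).

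STC2 had 271, 266 and 264 CPM in SNRPA1 siRNA libraries, against 200.04, 227 and 224 CPM in control siRNA libraries. The SNRPA1 siRNA libraries lay close together above all controls, a 1.23-fold difference (log2 fold change 0.30 ± 0.076, edgeR adjusted p = 0.0466). With 1 library left out, the log2 fold change lay between 0.24 and 0.33 and the edgeR adjusted p between 0.00728 and 0.171. Genes beside STC2 had a median of -0.0062 in this comparison.

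NUPR1 had 15.4, 18.1 and 18.04 CPM with SNRPA1 siRNA, against 14.2, 8.28 and 10.9 CPM with control siRNA. The groups did not overlap, yet the first control siRNA library was close to the lowest SNRPA1 siRNA library (log2 fold change 0.63 ± 0.20, edgeR adjusted p = 0.0816). DESeq2 gave an adjusted p of 0.0202, and without the first control siRNA library the log2 fold change was 0.84 (edgeR adjusted p = 0.00493).

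ATF4 had 551, 577 and 601 CPM with SNRPA1 siRNA, against 553, 428 and 467 CPM with control siRNA. The first control siRNA library reached the SNRPA1 siRNA libraries and the groups overlapped (log2 fold change 0.26 ± 0.10, edgeR adjusted p = 0.144). Without that library the value was 0.37 (edgeR adjusted p = 0.00373). TRIB3 had 83.5, 91.7 and 89.5 CPM with SNRPA1 siRNA, against 92.4, 77.8 and 75.1 CPM with control siRNA, again with the first control library the highest (log2 fold change 0.11 ± 0.10, edgeR adjusted p = 0.501). Without that library it was 0.21 (edgeR adjusted p = 0.0364).

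VLDLR had 11.8, 12.8 and 14.1 CPM with SNRPA1 siRNA, against 7.92, 12.4 and 10.3 CPM with control siRNA, with overlapping groups (log2 fold change 0.33 ± 0.18, edgeR adjusted p = 0.249). DDIT4 had 105, 124 and 120.05 CPM with SNRPA1 siRNA, against 112, 105 and 121 CPM with control siRNA (log2 fold change 0.05 ± 0.095, edgeR adjusted p = 0.757). Neither differed beyond its spread.

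The other 3 genes had lower means in the knockdown without a call. ASNS had 44.9, 44.2 and 41.9 CPM with SNRPA1 siRNA, against 47.2, 47.6 and 48.3 CPM with control siRNA, so that every SNRPA1 siRNA library was below every control (log2 fold change -0.13 ± 0.075, edgeR adjusted p = 0.299). SESN2 had 27.3, 29.3 and 25.6 CPM with SNRPA1 siRNA, against 29.4, 27.7 and 31.3 CPM with control siRNA (log2 fold change -0.11 ± 0.099, edgeR adjusted p = 0.512). CHAC1 had 9.76, 9.39 and 11.3 CPM with SNRPA1 siRNA, against 13.6, 9.30 and 10.8 CPM with control siRNA (log2 fold change -0.15 ± 0.17, edgeR adjusted p = 0.584), and its difference was 0.00998 without the first control siRNA library. Across the 10 genes, groups were apart with SNRPA1 siRNA above for 3 and below for 1, against 18.3% and 20.4% of all tested genes, or 38.7% in either direction.

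**Figure D4:**
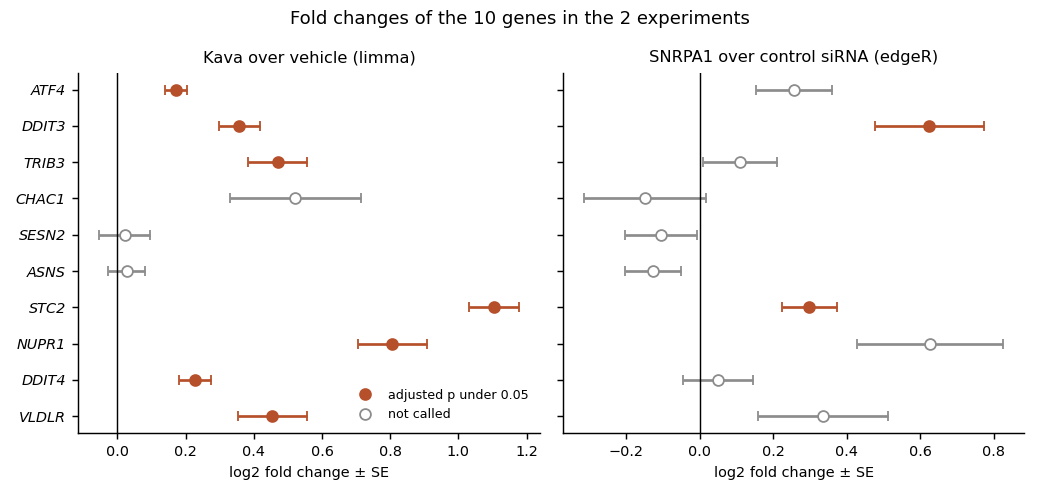
Log2 fold change ± SE of each member for kava over vehicle (limma, log2(TPM + 1) scale) and for SNRPA1 siRNA over control siRNA (edgeR, CPM). Filled points had an adjusted p under 0.05, which held for 7 genes with kava and for DDIT3 and STC2 in the knockdown, and the horizontal scales of the panels differ.

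Set side by side, DDIT3 changed by 0.36 with kava and 0.62 with SNRPA1 siRNA, and STC2 by 1.10 and 0.30. ASNS and SESN2, at 0.03 and 0.02 with kava, were at -0.13 and -0.11 with SNRPA1 siRNA. The experiments share no library and were normalised apart, and the difference between their changes was not tested.

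Per length, the authors' FPKM placed ATF4 first in both knockdown groups, at 195 ± 5.60 FPKM with SNRPA1 siRNA and 169.98 ± 15.96 FPKM with control siRNA. In SNRPA1 siRNA libraries DDIT4 at 48.7 and STC2 at 46.7 FPKM followed with overlapping ranges, then TRIB3 at 21.03, DDIT3 at 9.98, ASNS at 7.89, SESN2 at 7.01, CHAC1 at 4.37, NUPR1 at 2.76 and VLDLR at 0.685 FPKM. In control siRNA libraries DDIT4 at 49.1, STC2 at 39.7, TRIB3 at 20.3, ASNS at 8.99, SESN2 at 7.86, DDIT3 at 6.72, CHAC1 at 5.03, NUPR1 at 1.85 and VLDLR at 0.571 FPKM followed, and only DDIT3 and CHAC1 overlapped as neighbours. DDIT3 stood above ASNS and SESN2 with SNRPA1 siRNA and below both with control siRNA. Counts over FPKM implied a length of 18.4 kb for VLDLR, against 9.339 kb of exon in GENCODE 29, so its FPKM depends on the authors' gene model.

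Upstream of ATF4 in the knockdown, none of the 19 genes was higher and 3 were lower by edgeR (3 and 5 at an unadjusted p under 0.05, 2 and 4 called by DESeq2, and 0 and 3 by limma-voom), with a median of 0.056 that is opposite in sign to the calls. EIF2B2 fell by 0.54 and EIF2B5 fell by 0.40, both of the exchange factor eIF2B, and GCN1, the activator of GCN2, fell by 0.36 on the log2 scale. EIF2B5 stood at 49.9 ± 2.37 CPM with SNRPA1 siRNA and 65.9 ± 0.973 CPM with control siRNA (edgeR adjusted p = 0.0225). EIF2AK3 averaged 24.8 ± 2.73 CPM with SNRPA1 siRNA and 16.8 ± 5.05 CPM with control siRNA and was not called (log2 fold change 0.57, edgeR adjusted p = 0.145), and the other eIF2 kinases differed by 0.09 to 0.21. PPP1R15A averaged 134 ± 6.14 CPM with SNRPA1 siRNA and 104 ± 12.5 CPM with control siRNA (log2 fold change 0.38, edgeR adjusted p = 0.0552).

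Among bZIP partners, JDP2 rose by 0.55 and NFE2L2, which encodes NRF2, by 0.49 on the log2 scale, of 8 tested. ATF3 at 0.35, CEBPB at 0.20, CEBPG at -0.01 and ATF5 at -0.56 were not called (edgeR adjusted p of ATF5 = 0.0600). Amino acid supply genes had 1 of 19 higher, SLC7A5 by 0.47, and 1 lower, PCK2, a mitochondrial enzyme of gluconeogenesis, by 0.35. SLC7A5 averaged 1203 ± 111 CPM with SNRPA1 siRNA and 867 ± 58.8 CPM with control siRNA (edgeR adjusted p = 0.0224). No tRNA charging gene of 10 was called by edgeR, DESeq2 or limma-voom (1 at an unadjusted p under 0.05 in edgeR, higher), and AARS1 and IARS1, the most abundant, differed by 0.01 and -0.11.

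Stress targets had 3 of 15 higher, JDP2, the autophagy gene MAP1LC3B by 0.42 and HERPUD1 by 0.42, and 1 lower, the mitochondrial protease gene LONP1, which fell by 0.54. No gene of 8 in the CHOP-linked list was called by edgeR, although 3 were higher at an unadjusted p under 0.05 and in the calls of DESeq2 while limma-voom called none, and TNFRSF10B differed by 0.14. Of 19 ATF6 and XBP1 targets, HERPUD1, DNAJB11 at 0.31 and PDIA4 at 0.27 were higher and HYOU1 fell by 0.46. HYOU1 thus moved down here and up with kava, and DNAJB11 moved up in both.

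The mTORC1 list had a median of -0.25 in the knockdown, with 1 of 18 tested genes higher and 4 lower. TSC2, the partner through which DDIT4 acts, fell by 0.77, to 58.9 ± 3.91 CPM with SNRPA1 siRNA, against 100.2 ± 7.64 CPM with control siRNA (edgeR adjusted p = 0.00969). MTOR fell by 0.65, the GATOR2 gene WDR24 fell by 0.62 and RPTOR fell by 0.50, while RHEB, the activator of mTORC1, rose by 0.28. Genes beside TSC2 and WDR24 on chromosome 16 had medians of -0.26 and -0.24. The median was -0.20 beside RPTOR and -0.11 beside MTOR. For genes that fell in other lists, it was 0.00041 beside EIF2B2, 0.060 beside EIF2B5 and -0.077 beside GCN1. Beside LONP1 it was -0.079 and beside HYOU1 0.017. The part of the neighbourhood was not tested.

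Of the 9 tested relatives none was called by edgeR, with 2 lower at an unadjusted p under 0.05 and in the calls of DESeq2, and none called by limma-voom. STC1 averaged 56.3 ± 10.3 CPM with SNRPA1 siRNA and 40.4 ± 10.9 CPM with control siRNA (log2 fold change 0.48, edgeR adjusted p = 0.183). LRP8 was at -0.41, ASNSD1 at -0.20, SESN1 at 0.16, TRIB2 at 0.15, TRIB1 at 0.11 and CHAC2 at 0.08. HIF targets had 3 of 13 higher, NDRG1 by 1.04, ADM by 1.01 and SLC2A1 by 0.62, and PFKFB4 fell by 0.48. Of 6 glucocorticoid receptor targets DUSP1 rose by 0.79 and SGK1 by 0.49, and of 12 p53 targets none was called by edgeR (1 higher at an unadjusted p under 0.05, with 1 higher called by DESeq2 and none by limma-voom). The mitochondrially encoded mRNAs summed to 66216 to 75449 CPM with SNRPA1 siRNA and 60556 to 69792 CPM with control siRNA. The counts of these lists also depended on the first control siRNA library. Without it, edgeR called 2 upstream genes higher and 5 lower, 7 stress targets higher and 2 lower, 3 mTORC1 genes higher and 7 lower, 0 relatives higher and 3 lower, and 10 of the 13 mitochondrially encoded mRNAs higher, against 1 with all libraries. Without any 1 of the SNRPA1 siRNA libraries no gene of any list was called.

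**Figure D5:**
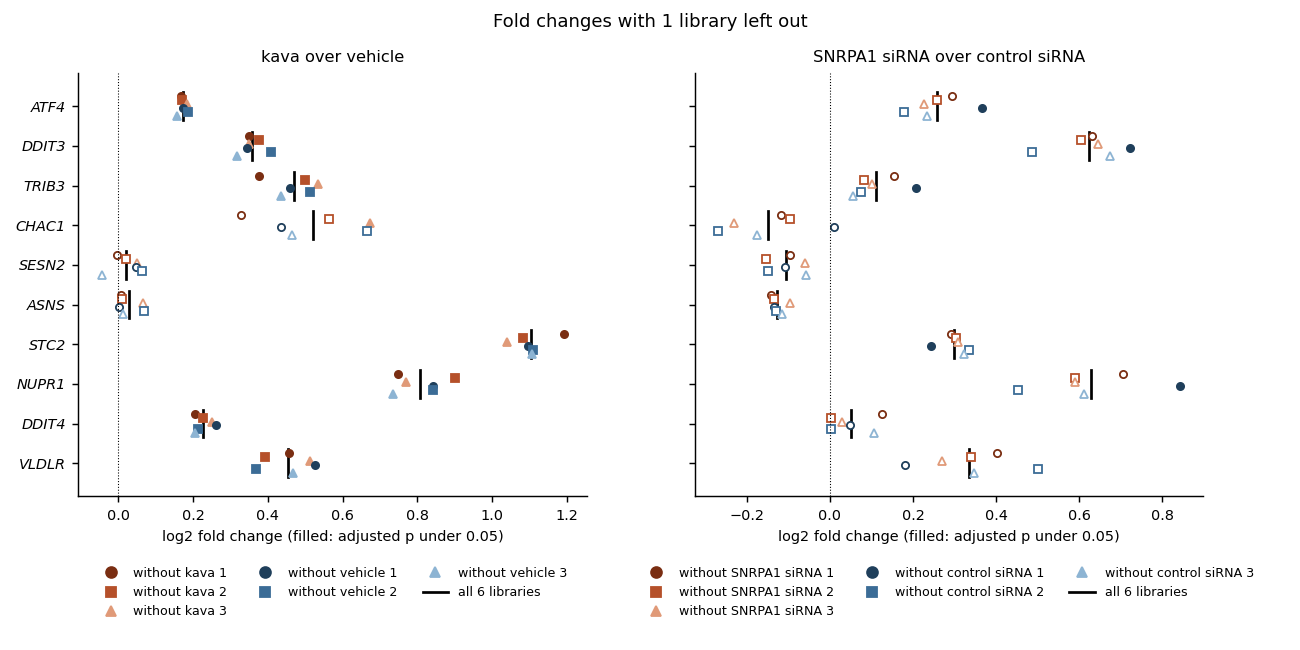
Log2 fold change of each member with all 6 libraries (black line) and with 1 library left out (symbols), for kava over vehicle and for SNRPA1 siRNA over control siRNA. Filled symbols had an adjusted p under 0.05, and the 7 kava calls hold in every case, whereas DDIT3 and STC2 keep their call in the knockdown only without the first control siRNA library.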

How the data were processed

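The 10 genes, the gene lists and the tests were chosen with earlier results of these data known. Reads were handled with HISAT2 2.0.4, StringTie 1.3.4d, cutadapt 1.9 and DESeq2 on build hg38, per the submitters' processing notes, which do not tie a tool to a table. Per the file headers, the authors deposited TPM values for kava and vehicle, and read counts with FPKM values for the siRNA libraries. The title of the TPM table names salmon, a difference that could not be settled. TPM sums to 1000000 in each library, so depth is unknown there. The authors' count columns summed to 55003534 to 65385258 reads, and 1 FPKM column without a prefix was used as the remaining library's. In total 0 columns belonged to other samples.

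Kava was tested with limma 3.58.1 (R 4.3.3, eBayes with trend) on log2(TPM + 1) for genes that averaged 1 TPM or more. The knockdown was tested on the deposited counts with edgeR 4.0.16 (TMM, quasi-likelihood test), for genes that averaged 1 CPM or more. Tests were two-sided and adjusted by Benjamini-Hochberg over all tested genes, with a threshold of 0.05. The SE of an edgeR fold change is its size over the square root of F. Both scripts were tested on simulated data. Lists were described by counts and medians only. Neighbours are up to 25 tested genes on each side, looked up for the members and for list genes chosen after their values were seen. Named are all members and relatives (1 relative is not reported here), SNRPA1, the eIF2 kinases, PPP1R15A, CEBPB, CEBPG, ATF3 and ATF5, and of each other list up to 6 called genes with the lowest adjusted p, or the 2 most abundant where none was called. The cell type markers named were chosen after their values were seen. Alternatives covered pseudocount, filter, scaling, tool, replicate block and libraries left out.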

Additional observations from a re-analysis of the deposited data

How the results depend on the processing

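The 7 kava calls held in all 14 alternatives, and CHAC1 was called in addition only without the third kava library. With 1 library left out, 7 to 8 members were called with kava, 7 to 8 higher and 0 to 0 lower, and 3155 to 4312 of all genes, 1626 to 2213 higher and 1400 to 2099 lower (1400 without the first vehicle library). SESN2 ranged from -0.045 to 0.062, with -0.0050 without the first kava library and -0.045 without the third vehicle library. In the knockdown, 0 to 5 members were called, 0 to 5 higher and 0 to 0 lower, and 0 to 4546 of all genes, 0 to 2222 higher and 0 to 2324 lower. CHAC1 ranged from -0.27 to 0.00998, which was reached without the first control siRNA library.

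Scaling by library size alone called 1 member, higher, and 1776 genes, 386 of them higher, against 1677 and 673 with TMM. The other change, limma on log2(FPKM + 1), called 1 member, higher, and 393 genes higher. DDIT4 turned to -0.0064 and -0.010 in these. DESeq2 called 3195 genes, 1427 higher and 1768 lower. Without the filter, edgeR called 0 members, 0 higher, and 669 genes, 258 higher and 411 lower, with 4 members at an unadjusted p under 0.05. With the replicate block, edgeR called 0 members, 0 higher, and 0 genes, 0 higher and 0 lower, while 2919 genes and 3 members had an unadjusted p under 0.05. Deviations of same-numbered libraries correlated weakly or negatively (r of -0.016, -0.11 and 0.093 with kava, and -0.38, 0.0015 and -0.19 in the knockdown). Groups of 3 cannot settle whether the numbers pair the libraries. With kava the block left 7 members called. The causes were not tested. Groups of 3 limit all tests, and TPM without read counts does not let the counting error be modelled.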
